A study of Mus musculus with 6 samples.

Results

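The 41 genes described here, which copy the chromosomes and then divide the cell, were followed in mouse embryos that lack the reduced folate carrier RFC1. Members were taken by name: every probe set annotated to 1 of 41 chosen gene symbols and to no other. Of these, 40 genes were measured, by 95 of the 45101 probe sets, among 18194 genes in all. Ccnb1 was not analysed here, since no probe set carried its symbol alone. By role, 19 measured members work in DNA replication, 7 in the passage from G1 into S phase and its checkpoint, and 14 in mitosis.

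The arrays held RNA of whole embryos at embryonic day 9.5, 1 embryo on each of 6 Affymetrix mouse arrays. The 3 RFC1-/- embryos, homozygous for a targeted inactivation of the carrier gene Slc19a1, were set against 3 RFC1+/+ littermates, and litters 1, 2 and 3 gave 1 pair each. All 6 embryos came from an SWV background and from dams injected under the skin with folic acid at 25 mg/kg every day from E0.5, so neither genotype was without maternal supplement. By their labels the RFC1-/- embryos were affected and the RFC1+/+ embryos normal. For RFC1-/- embryos on this dose the study describes an open neural tube along the brain and spine and no union of chorion with allantois. The study also describes RFC1-/- embryos as delayed in development beside their littermates at mid-gestation, and calls the E9.5 mutants tiny. Stage was not tested apart from genotype. The carrier is lost in every tissue of the embryo, and an array of a whole embryo does not say which tissue a level comes from. Levels are log2 values, and a difference is RFC1-/- minus RFC1+/+ within a litter, averaged over the 3 litters. Each difference is given with limma's test, adjusted by Benjamini and Hochberg over all 18194 genes, and a gene is said to have risen or fallen where the adjusted p was under 0.05. On the brightest probe set of each gene, Slc19a1 itself measured 9.97, 10.10 and 9.84 in RFC1-/- embryos and 9.11, 9.10 and 8.89 in RFC1+/+ embryos. The sources used here do not state what stretch of the gene the allele removes. If these probes lie outside it their level checks nothing, and genotypes therefore rest on the labels. The carrier RFC1 is not a replication factor: Rfc3 and Rfc4 below are subunits of replication factor C, an unrelated complex that shares the initials.

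A chromosome is copied once per cycle. In G1 the origin recognition complex, Cdc6 and Cdt1 load the Mcm2 to Mcm7 helicase onto origins. In S phase DNA polymerase alpha with primase lays down primers, replication factor C loads the Pcna clamp, and the polymerases delta and epsilon extend the strands. Cyclin B with Cdk1 then drives mitosis, where Plk1 and the Aurora kinases, the spindle checkpoint and the kinesins separate the copies. Folate carries the 1-carbon units for thymidylate and purines, the building blocks of new DNA, and embryos at this stage divide fast.

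Most members lay a little lower in RFC1-/- embryos, and 1 passed the test. Pola1, the catalytic subunit of DNA polymerase alpha, fell by 0.53 on the log2 scale. It was 1 of 40 members that fell (2.5%), against 1.65% of all genes, while 0 of 40 rose in limma, against 3.67% of all genes. At an unadjusted p under 0.05 from limma, 5 members were lower (12.5%, against 8.05% of all genes): Pola1, Rfc4, Rfc3, Chek1 and E2f1. At that level 0 were higher, against 10.4% of all genes. The median difference over the 40 members was -0.11, against -0.01 over all genes, with members between -0.53 and 0.12. Mean differences were below 0 for 34 members (85.0%, against 54.0% of all genes). In all 3 litters 18 members (45.0%) were lower in the RFC1-/- embryo, against 20.6% of all genes. For 8 members (20%) every RFC1-/- embryo lay below every RFC1+/+ embryo, against 13.4% of all genes. These 8 were Pola1, Rfc3, Rfc4, Gmnn, Chek1, E2f1, Top2a and Mki67.

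How large a difference could have been missed is given by the intervals. The 95% interval of a member reached 0.255 to either side of its mean at the median member. For 37 of 40 members (92.5%, against 81.9% of all genes) the whole interval lay within 1.5-fold of no difference in either direction. The 3 whose interval went further were Pola1, Rfc3 and Rfc4, all in the group that primes and extends new strands.

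**Figure D1:**
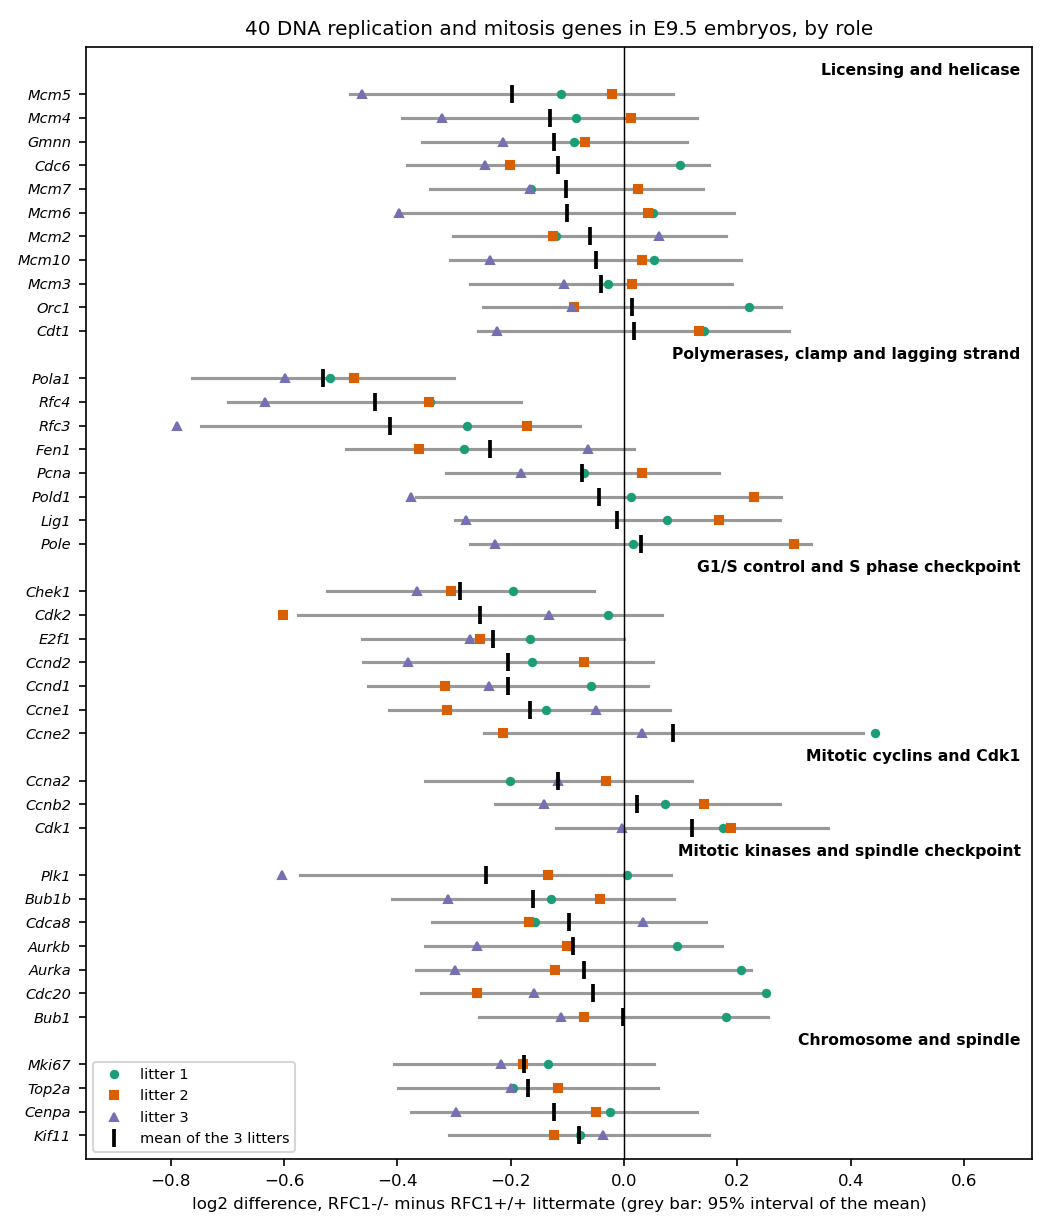
Each row is 1 of the 40 genes, grouped by role, with the log2 difference of each litter (RFC1-/- minus RFC1+/+), the mean of the 3 litters and its 95% interval on the x axis. Pola1, Rfc4 and Rfc3 stand furthest left, at -0.53, -0.44 and -0.41, and the triangles of litter 3 lie left of 0 for 37 of 40 genes.

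The widest differences were among the polymerases, the clamp with its loader and the lagging-strand enzymes, 8 members with a median of -0.15. Pola1 measured 9.45, 9.40 and 9.33 in the RFC1-/- embryos of litters 1, 2 and 3, against 9.97, 9.88 and 9.93 in their RFC1+/+ littermates. The groups did not overlap, and within each litter the RFC1-/- embryo was lower by a similar step. The mean difference was -0.53 ± 0.10 (SE, n = 3 pairs; 95% interval -0.76 to -0.30; adjusted p = 0.0301 from limma), which makes the level 1.45-fold lower in RFC1-/- embryos. Pola1 starts the RNA-primed stretch that opens each new strand. Its call did not survive every setting: the adjusted p in limma was 0.175 without litter 1, 0.0794 without litter 2 and 0.158 for the mean of its 2 probe sets. Pola1 lies on the X chromosome, and the embryos were of mixed sex: by Xist and the Y-linked Eif2s3y, the RFC1-/- embryo of litter 3 and the RFC1+/+ embryo of litter 2 were female and the other 4 were male. In the 4 male embryos alone the difference was -0.52 (adjusted p = 0.113 from limma). That comparison was added after seeing the data and was not paired by litter, since not all of these embryos had a male littermate.

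Rfc4 and Rfc3, subunits of the ring that opens the Pcna clamp onto DNA, came next. Rfc4 measured 10.15, 10.16 and 10.01 in RFC1-/- embryos, against 10.49, 10.50 and 10.64 in RFC1+/+ embryos. Rfc3 measured 9.24, 9.36 and 8.83 in RFC1-/- embryos, against 9.52, 9.53 and 9.62 in RFC1+/+ embryos. Neither gene's groups overlapped, and in both genes litter 3 held the widest step. The difference of Rfc4 was -0.44 ± 0.11 (SE, n = 3 pairs; adjusted p = 0.0729 from limma), and that of Rfc3 was -0.41 ± 0.14 (SE, n = 3 pairs; adjusted p = 0.171 from limma), so neither passed. Without litter 3, the difference of Rfc3 was -0.22 and that of Rfc4 was -0.34.

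The other enzymes at the fork gave smaller values. Fen1, the flap endonuclease that trims Okazaki fragments, differed by -0.24 (95% interval -0.49 to 0.02) and was lower in the RFC1-/- embryo of every litter, although the groups overlapped. Pcna, the sliding clamp and a common label of S phase, measured 13.42, 13.41 and 13.34 in RFC1-/- embryos, against 13.50, 13.38 and 13.53 in RFC1+/+ embryos. These levels overlapped, and the difference of Pcna was -0.07 (95% interval -0.31 to 0.17), which leaves out a change of 1.5-fold either way. Pole, the leading-strand polymerase, differed by 0.03 (95% interval -0.27 to 0.33), Pold1, the catalytic subunit of polymerase delta, by -0.05, and Lig1, the ligase that joins Okazaki fragments, by -0.01. For Pole the RFC1-/- embryo was the higher in litter 2, by 0.30, and the lower in litter 3, by 0.23.

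**Figure D2:**
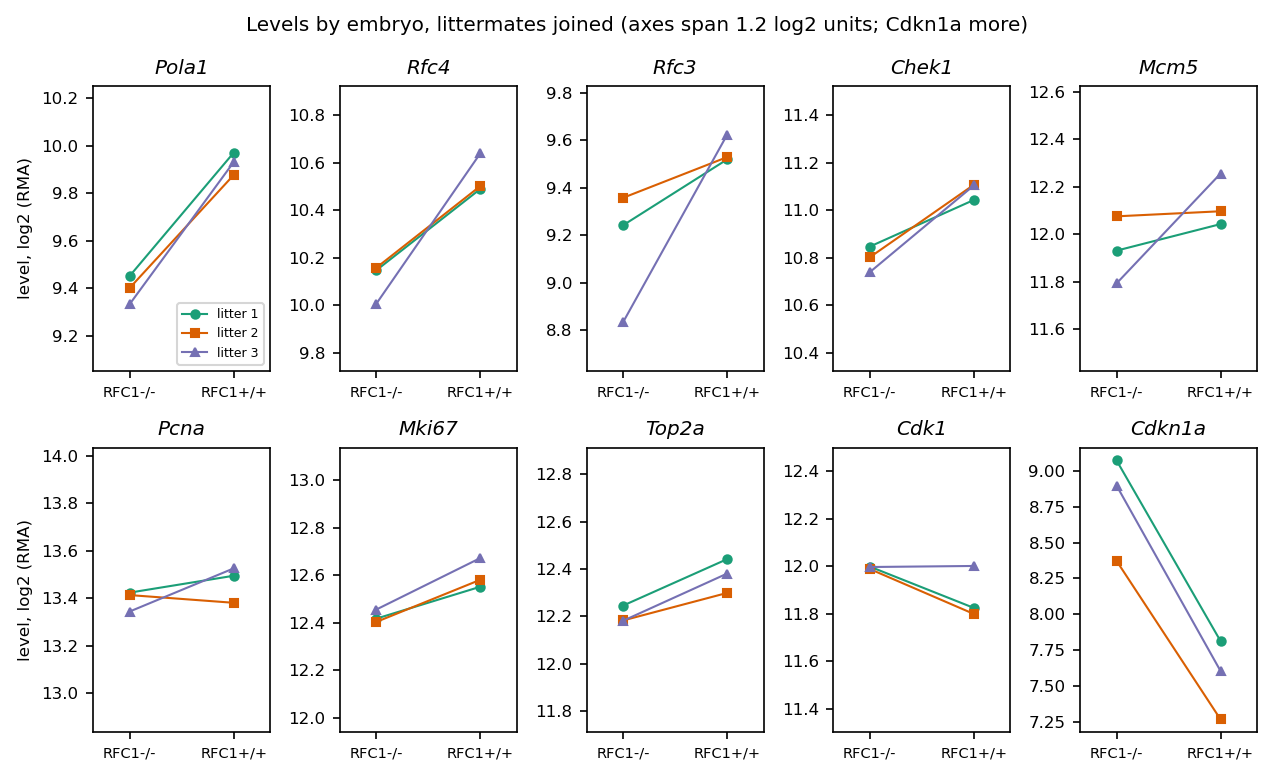
Level of 10 genes in each embryo on a log2 axis, RFC1-/- at the left and RFC1+/+ at the right of each panel, with a line joining littermates. Pola1, Rfc4, Rfc3, Chek1, Mki67 and Top2a do not overlap between genotypes, Pcna, Mcm5 and Cdk1 do, and Cdkn1a, a Cdk inhibitor outside the 41 genes, lies higher in every RFC1-/- embryo.

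The 11 licensing and helicase genes had a median difference of -0.10 and a range of -0.20 to 0.02. In limma 0 of 11 passed the test in either direction, and 0 did so at an unadjusted p under 0.05. Mcm5, a subunit of the replicative helicase, had the lowest value of the group, with levels of 11.93, 12.08 and 11.79 in RFC1-/- embryos, against 12.04, 12.10 and 12.26 in RFC1+/+ embryos. Those levels overlapped, and the difference of -0.20 (95% interval -0.48 to 0.09) came mostly from litter 3, at -0.46. The other Mcm5 probe sets gave -0.36 and, at a low level, 0.35, and the mean of its 3 probe sets gave -0.07. Mcm2, another helicase subunit, measured 11.78, 11.78 and 11.77 in RFC1-/- embryos, against 11.90, 11.91 and 11.71 in RFC1+/+ embryos. Its difference was -0.06 (95% interval -0.30 to 0.18), with the RFC1-/- embryo the higher in litter 3 alone. All 6 subunits Mcm2 to Mcm7 had mean differences below 0, with a median of -0.10, and in litter 2 alone 4 of the 6 were above 0. Gmnn, or geminin, which holds Cdt1 back until the next cycle, was lower in each litter without overlap, by -0.09, -0.07 and -0.21. Cdt1, the loader of the helicase, gave the highest value of the group at 0.02 (95% interval -0.26 to 0.29), and its sign changed with the litter: it was 0.14, 0.13 and -0.22 in litters 1, 2 and 3. Cdc6 and Orc1 stood at -0.12 and 0.01, and Mcm10, which helps to switch the helicase on, at -0.05.

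Genes of the passage from G1 into S had the lowest median of the roles, -0.21 over 7 members. On their brightest probe sets 6 of the 7 were lower in all 3 litters (85.7%, against 20.6% of all genes). In limma 0 of 7 passed the test. At an unadjusted p under 0.05 in limma 2 were lower (28.6%, against 8.05% of all genes) and 0 higher (against 10.4%). Chek1, the kinase that restrains Cdk activity when forks stall, measured 10.85, 10.80 and 10.74 in RFC1-/- embryos, against 11.04, 11.11 and 11.10 in RFC1+/+ embryos. The groups were apart, and the difference was -0.29 ± 0.10 (SE, n = 3 pairs; adjusted p = 0.173 from limma). E2f1, a transcription factor that switches on S phase genes, measured 7.49, 7.63 and 7.40 in RFC1-/- embryos, against 7.66, 7.89 and 7.67 in RFC1+/+ embryos. Its groups came within 0.02 of each other without overlap, and the difference was -0.23 (adjusted p = 0.270 from limma). Ccnd1, or cyclin D1, which answers growth signals in G1, measured 9.73, 9.86 and 9.72 in RFC1-/- embryos, against 9.79, 10.18 and 9.95 in RFC1+/+ embryos. These overlapped, and the difference was -0.20 (95% interval -0.45 to 0.04). The other Ccnd1 probe sets gave -0.03 and 0.11, and the mean of its 3 probe sets gave -0.04. Cdk2, the partner of the E cyclins, stood at -0.25 with most of it in litter 2, at -0.60. Ccnd2 and Ccne1, further cyclins of G1 and of the G1 to S step, stood at -0.21 and -0.17. Ccne2, the second E cyclin, went the other way, at 0.09 (95% interval -0.25 to 0.42), from 0.44, -0.21 and 0.03 in litters 1, 2 and 3.

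The 14 mitosis members had a median difference of -0.09, and 12 of them lay below 0. In limma 0 of 14 passed in either direction, and 0 did so at an unadjusted p under 0.05. Mki67, the chromosome coat protein used to label dividing cells, measured 12.42, 12.40 and 12.46 in RFC1-/- embryos, against 12.55, 12.58 and 12.67 in RFC1+/+ embryos. Top2a, the topoisomerase that untangles sister chromatids, measured 12.25, 12.18 and 12.18 in RFC1-/- embryos, against 12.44, 12.30 and 12.38 in RFC1+/+ embryos. On their brightest probe sets both genes were lower without overlap, by small steps that were alike in all litters. The other Top2a probe sets gave -0.01, at a low level, and 0.08, and the mean of its 3 probe sets gave -0.03. The difference of Mki67 was -0.18 (95% interval -0.41 to 0.05; adjusted p = 0.414 from limma) and that of Top2a was -0.17 (95% interval -0.40 to 0.06; adjusted p = 0.435 from limma).

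Cdk1, the kinase that starts mitosis, had the highest value of all 40 members. It measured 12.00, 11.99 and 12.00 in RFC1-/- embryos, against 11.82, 11.80 and 12.00 in RFC1+/+ embryos. The difference of 0.12 (95% interval -0.12 to 0.36) lay in litters 1 and 2, and the littermates of litter 3 were equal within 0.01. Ccnb2, a cyclin partner of Cdk1, stood at 0.02, and Ccna2, which serves both S phase and mitosis, at -0.12. Among the 7 mitotic kinases and checkpoint genes the median was -0.09 and all mean differences were below 0. Plk1, which acts at centrosomes and kinetochores, was the lowest of these, with 9.61, 9.79 and 9.55 in RFC1-/- embryos, against 9.60, 9.93 and 10.15 in RFC1+/+ embryos. Its groups overlapped, and the difference of -0.24 (95% interval -0.57 to 0.08) came from litter 3, at -0.60, and litter 2, at -0.14. Bub1b, a spindle checkpoint protein, stood at -0.16 and its relative Bub1 at -0.001. The Aurora kinases Aurka and Aurkb stood at -0.07 and -0.09, and Cdca8, or borealin, which works in a complex with Aurkb, at -0.10. Cdc20, which activates the anaphase-promoting complex, stood at -0.06, from 0.25, -0.26 and -0.16 in litters 1, 2 and 3. The motor Kif11 and the centromere histone Cenpa stood at -0.08 and -0.12, each lower in all 3 litters with overlapping groups.

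Set against each other, replication and mitosis had nearly the same median. Replication members stood at -0.10 (19 genes) and mitosis members at -0.09 (14 genes), a gap of -0.008. By litter the gap was -0.06, 0.12 and -0.06, so its direction was not the same in the 3 pairs. Medians of replication members were -0.07, 0.01 and -0.24 in litters 1, 2 and 3. Medians of mitosis members were -0.01, -0.11 and -0.18 in litters 1, 2 and 3. Without litter 3 the median was -0.037 for replication and -0.051 for mitosis members, and without litter 1 it was -0.17 for mitosis members. Within replication the spread was wider than within mitosis: members ran from -0.53 to 0.03 in the first and from -0.24 to 0.12 in the second.

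**Figure D3:**
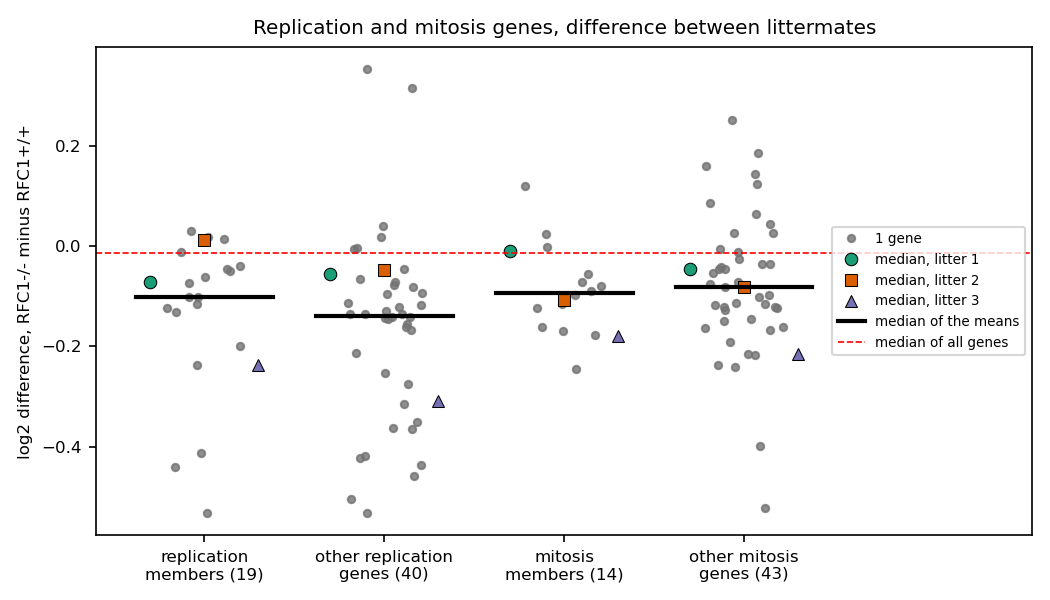
Log2 difference (RFC1-/- minus RFC1+/+) of each replication and mitosis gene, among the members and among other genes of the same processes, with the median of each litter, the median of the means and, as a dashed line, the median of all genes. The 4 medians lie between -0.14 and -0.08, and the genes below -0.3 are 3 replication members, 10 other replication genes, 0 mitosis members and 2 other mitosis genes.

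The letters before the start site differed between the replication and the mitosis members. Promoter windows were taken from RefSeq on GRCm38.p6 and were at hand for 33 of the 41 genes; Mcm4, Gmnn, Pole, Ccnd1, Ccnd2, Ccne2, Ccna2 and Aurkb had none in the table. In the 250 bases before the start, on both strands, the E2F motif was searched as TTTCCCGC, TTTCGCGC, TTTGCCGC or TTTGGCGC, the cell cycle homology region (CHR) as TTTGAA or TTCGAA, and the CCAAT box by its letters. E2F factors are known for genes of the G1 to S step, and the CHR together with CCAAT boxes for genes of G2 and mitosis. An E2F match was in 7 of 16 replication windows (43.8%) and in 1 of 13 mitosis windows (7.69%), against 2.16% of all 27025 genes with a window. Of the 4 G1/S windows 1 held an E2F match (25.0%), that of Cdk2. A CHR match was in 4 replication windows (25.0%) and 7 mitosis windows (53.8%), against 19.6% of all. A CCAAT match was in 10 replication windows (62.5%) and in all 13 mitosis windows, against 37.5% of all. The short stretches below are shown because they carry these letters in the genes that the results turn on; matches are in capitals on the gene's own strand, where CCAAT can read ATTGG and the E2F motif GCGCCAAA. For Pola1, Mcm5 and Mki67, where the gene's span in RefSeq begins before the start used and so reaches into the window, the stretch is kept to 30 bases around the E2F or CHR letters.
Pola1: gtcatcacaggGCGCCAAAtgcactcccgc
Mcm5: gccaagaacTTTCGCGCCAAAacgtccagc
Pcna: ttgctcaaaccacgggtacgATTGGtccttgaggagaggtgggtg
Cdk1: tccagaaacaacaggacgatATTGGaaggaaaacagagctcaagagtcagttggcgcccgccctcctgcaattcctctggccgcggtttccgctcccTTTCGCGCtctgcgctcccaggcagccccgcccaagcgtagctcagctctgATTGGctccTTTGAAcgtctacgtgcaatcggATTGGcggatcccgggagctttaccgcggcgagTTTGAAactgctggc
Plk1: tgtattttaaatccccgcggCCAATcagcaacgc
Mki67: gaaTTTGAAccgccgttttggTTTGAAtcg

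On GRCm38.p6 these lie at chrX:93632275-93632304 (minus strand) for Pola1, chr8:75109347-75109376 (plus strand) for Mcm5 and chr2:132253243-132253287 (minus strand) for Pcna. Those of mitosis genes lie at chr10:69352913-69353140 (minus strand) for Cdk1, chr7:122159401-122159434 (plus strand) for Plk1 and chr7:135716469-135716498 (minus strand) for Mki67. The Pola1 stretch holds 1 E2F match, and Mcm5 holds 2 that overlap. Cdk1 is the mitosis member with both kinds of letters: 1 E2F match, 3 CCAAT and 2 CHR matches. Mki67 holds 2 CHR matches close together. The 9 measured members with an E2F match had a median difference of -0.12 and a range of -0.53 (Pola1) to 0.12 (Cdk1), and the 23 without one a median of -0.08. With a CHR match the median was -0.10 over 11 members, and without one it was -0.10 over 21. With a CCAAT match it was -0.10 over 23 members, and without one -0.17 over 9. A match in a window is a description of its letters and not of a bound factor.

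The low values were not spread evenly over the litters. In litters 1, 2 and 3 the RFC1-/- embryo was lower for 24, 28 and 37 of the 40 members. The members' medians were -0.06, -0.09 and -0.23. Littermates were of the same sex in litter 1 and of unlike sex in litters 2 and 3, so sex and litter cannot be told apart here. Medians over all genes stayed between -0.02 and -0.004. Values near 0 follow here from the quantile normalization of RMA, which gives all arrays like distributions. Cell type markers also differed by litter, in more than one order. Over all genes 3.67% rose and 1.65% fell. Visceral endoderm markers, the yolk sac lineage that secretes Afp, Ttr and apolipoproteins, rose for 11 of 11 measured genes, with medians of 2.82, 3.18 and 4.71 in litters 1, 2 and 3. Their summed signal on the linear scale ran from 22915 to 56774 in RFC1-/- embryos, against 2516 to 6284 in RFC1+/+ embryos; several of these genes were singled out by the study on these same samples. Neural progenitor markers fell for 10 of 11 measured genes, with medians of -1.08, -0.91 and -1.77, and a summed signal of 2790 to 4969 in RFC1-/- embryos against 7702 to 8313 in RFC1+/+ embryos. Primitive erythroid markers, led by the embryonic globins, fell for 8 of 9, with medians of -3.71, -2.53 and -2.34 and a summed signal of 1005 to 4572 in RFC1-/- embryos against 28567 to 41648 in RFC1+/+ embryos. Markers of neurons fell for 4 of 7, with medians of -2.12, -1.19 and -1.32 and a summed signal of 973 to 1029 in RFC1-/- embryos against 1168 to 1759 in RFC1+/+ embryos. Those of paraxial mesoderm fell for 3 of 7, with medians of -0.26, -0.41 and -0.81 and a summed signal of 727 to 919 in RFC1-/- embryos against 1123 to 1335 in RFC1+/+ embryos. Among 4 measured trophoblast markers Plac1 alone rose, the medians were 0.54, -0.01 and 0.37, and the summed signal was 584 to 1111 in RFC1-/- embryos against 268 to 407 in RFC1+/+ embryos. No marker reads 0, since RMA gives none. Litter 3 had the widest median for visceral endoderm, neural progenitor and paraxial mesoderm markers, as for replication and mitosis members, whereas litter 1 had it for erythroid, neuron and trophoblast markers and litter 2 for G1/S members. The part of tissue make-up or of developmental stage in the members' differences was not tested. In RNA of whole embryos, fewer cells of a type and less RNA per cell cannot be told apart.

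**Figure D4:**
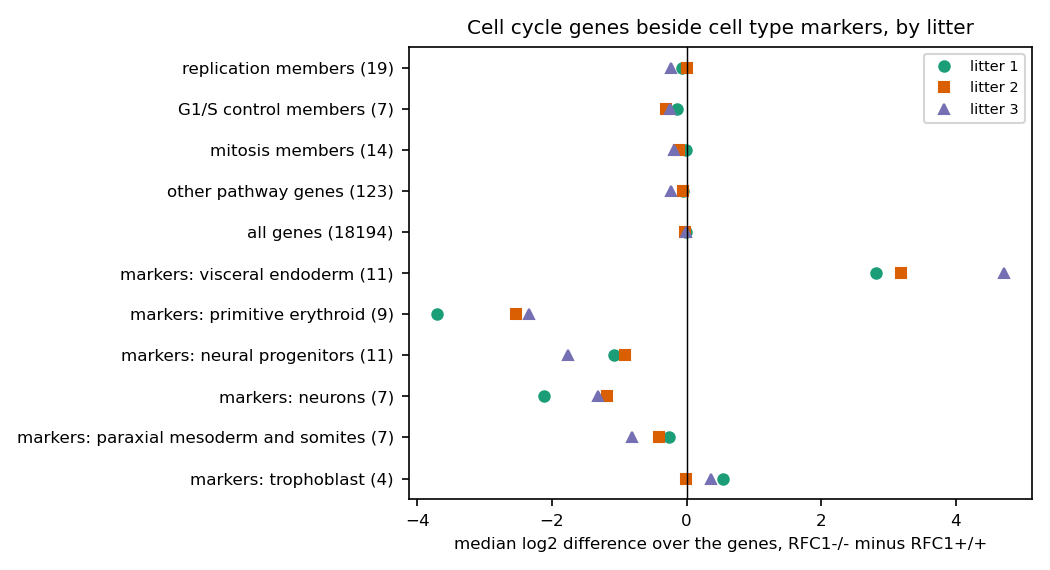
Median log2 difference (RFC1-/- minus RFC1+/+) over the genes of each list, 1 point per litter, with the number of genes in brackets. Replication, G1/S and mitosis members lie between -0.31 and 0.01 in every litter, while visceral endoderm markers lie at 2.82 to 4.71 and neural progenitor markers at -1.77 to -0.91.

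Most genes had several probe sets, and these did not always give the same value. Of the 40 genes, 30 had more than 1. Tested singly over all 45101 probe sets, 3 of the 95 fell in limma (against 0.882% of all probe sets) and 0 rose: the brighter of 2 for Pola1, the dimmer of 2 for Rfc3 and 1 of 7 for Ccnd2. The second Rfc3 probe set measured 8.02, 8.11 and 7.65 in RFC1-/- embryos, against 8.83, 8.51 and 8.52 in RFC1+/+ embryos. That is a difference of -0.69 ± 0.12 (SE, n = 3 pairs; adjusted p = 0.0371 from limma), larger than on the brightest one, with no overlap. The 7 Ccnd2 probe sets ran from -0.75 to -0.04, and the 1 that fell, at -0.52 (adjusted p = 0.0413 from limma), did not overlap between genotypes. Rfc4 gave -0.34 on its other probe set. The other Pola1 probe set lay near the bottom of the scale, at a mean of 3.79 in RFC1-/- embryos and 3.81 in RFC1+/+ embryos, and gave -0.02. Before its own test the study kept probe sets with at least 1 of the 6 arrays 1.5-fold or more away from the median. Of the 95 probe sets 7 meet such a filter (7.37%, against 6.61% of all), and they belong to Ccnd2, Kif11, Mcm3, Mcm5 and Rfc3. Neither probe set of Pola1 is among them.

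**Figure D5:**
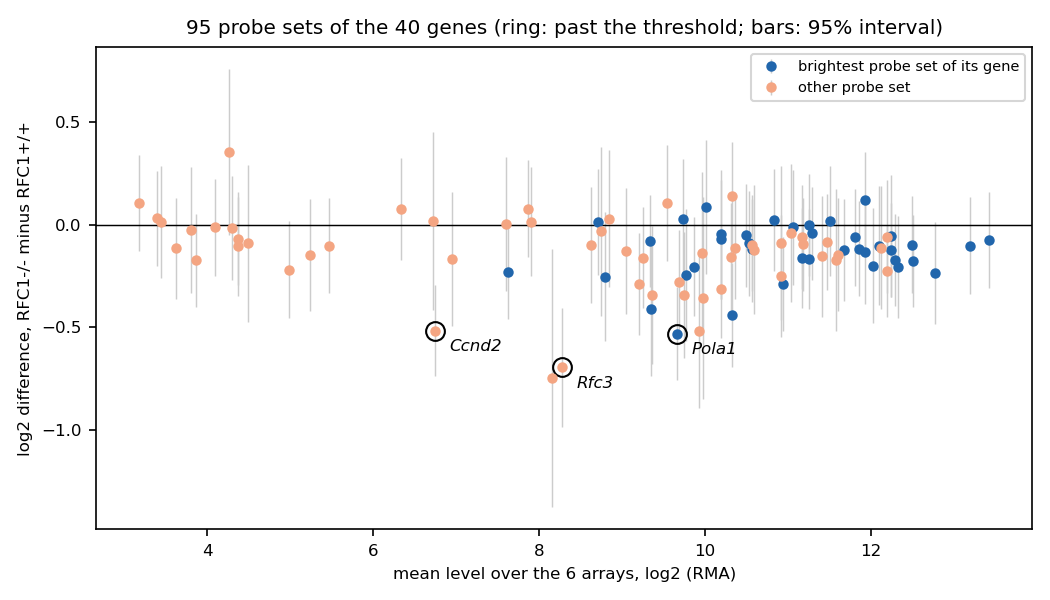
Log2 difference (RFC1-/- minus RFC1+/+) with its 95% interval against mean level for the 95 probe sets, the brightest of each gene in blue and the others in orange, and the 3 that fell ringed. Of the 95 points 77 lie below 0, and the ringed ones are at -0.53 (Pola1), -0.69 (Rfc3) and -0.52 (Ccnd2).

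Other genes of the same processes, 123 measured of 124 listed, were read beside the members. Over all genes 1.65% fell and 3.67% rose in limma. At an unadjusted p under 0.05 in limma 8.05% of all genes were lower and 10.4% higher. Of 40 further replication genes 1 fell and 0 rose in limma, with 11 lower and 1 higher at an unadjusted p under 0.05 and a median of -0.14. The 1 that fell was Asf1b, a histone chaperone of S phase, at -0.46 (adjusted p = 0.0496 from limma), and it was not called without any 1 of the litters. Of 43 further mitosis genes 0 fell and 0 rose in limma, with 2 lower and 0 higher at an unadjusted p under 0.05 and a median of -0.08. Among 20 regulators of the E2F and Rb system 2 fell and 0 rose in limma, with a median of -0.10. Rb1, the retinoblastoma protein that holds E2F factors in check, measured 8.64, 8.74 and 8.52 in RFC1-/- embryos, against 9.29, 9.12 and 9.15 in RFC1+/+ embryos. E2f2, an activating E2F, measured 6.60, 6.69 and 6.30 in RFC1-/- embryos, against 7.03, 7.09 and 7.08 in RFC1+/+ embryos. Both sets of levels were apart, with differences of -0.56 (Rb1, adjusted p = 0.0335 from limma) and -0.54 (E2f2, adjusted p = 0.0495 from limma). E2f2 was not called without any 1 of the litters, and Rb1 was not called without litter 1 or with its probe sets averaged (adjusted p = 0.215 and 0.112 from limma). Checkpoint kinases and their partners gave 0 of 12 in either direction in limma, also at an unadjusted p under 0.05, with a median of -0.01.

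Of 8 Cdk inhibitors 1 rose (12.5%, against 3.67% of all genes) and 0 fell. That change was wider than any other among the members and these further genes. Cdkn1a, or p21, which blocks cyclin and Cdk pairs and binds Pcna, measured 9.07, 8.37 and 8.90 in RFC1-/- embryos, against 7.81, 7.26 and 7.60 in RFC1+/+ embryos. The lowest RFC1-/- embryo lay above the highest RFC1+/+ embryo. The difference of 1.22 ± 0.10 (SE, n = 3 pairs; adjusted p = 0.00417 from limma) was of like size in the litters, at 1.26, 1.11 and 1.30. Cdkn1c, or p57, which stops cells that leave the cycle, measured 11.52, 11.62 and 11.90 in RFC1-/- embryos, against 11.37, 11.10 and 11.11 in RFC1+/+ embryos, apart but not past the threshold (0.49, adjusted p = 0.111 from limma).

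Read by complex, a grouping picked after the values were seen and therefore given with no test, the primase subunits that partner Pola1 also lay low. Prim1, the primase that makes the RNA primer, measured 11.22, 11.23 and 11.28 in RFC1-/- embryos, against 11.56, 11.59 and 11.65 in RFC1+/+ embryos, a difference of -0.36 with no overlap. The other partners of Pola1 stood at -0.35 (Prim2, the large primase subunit) and -0.16 (Pola2, the accessory subunit), so the median over the 4 subunits was -0.36. All 5 clamp loader subunits, Rfc1 to Rfc5, lay below 0, from -0.44 to -0.14 with a median of -0.17. Rfc4 and Rfc3 were the lowest of these. The others lay near the median of the 40 further replication genes, -0.14. The 4 GINS genes, whose complex joins the helicase, ran from -0.53 to -0.005 with a median of -0.28. The lowest were Gins1 at -0.53 and Gins3 at -0.44. The helicase core Mcm2 to Mcm7 stood at -0.10 and the origin recognition complex at -0.04. The 6 genes of the origin recognition complex ran from -0.42 to 0.35. At an unadjusted p under 0.05 in limma 2 of them were lower and 1 was higher. None of these partners passed the threshold in limma. Lower at an unadjusted p under 0.05 in limma were 3 of the 4 primase and polymerase alpha genes (Pola1 included). So were 2 of the 5 loader genes (Rfc3 and Rfc4) and 2 of the 4 GINS genes. At that level 27.5% of the 40 further replication genes were lower, and 8.05% of all genes. Since the complexes were picked on these same values, their counts are a description and no test of them.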

How the data were processed

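The authors deposited log2 expression values, 1 per probe set and array, made with RMA (background correction, quantile normalization, median polish); the sources used here name no version of that software. Total RNA of 100 ng per embryo went through a pair of labelling cycles. Of 45101 probe sets, 34958 carried 1 gene symbol in the platform annotation, 932 several and 9211 none, and 34754 had a gene identifier that RefSeq (GRCm38.p6) holds, with 0 symbols changed. A gene was read from its brightest probe set, which for 6 of the 40 members shares probes with other sequences by its suffix (x_at). For 7 others, Rfc4 and Chek1 among them, the suffix (s_at) marks probes shared by several transcripts. Array medians were 5.43 to 5.49, and correlations between arrays 0.984 to 0.996; arrays give no read depth, and their number limits the precision. 0 columns were left unused.

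limma 3.58.1 (R 4.3.3) fitted genotype with litter as a block over all 18194 genes, with Benjamini-Hochberg adjustment, a threshold of 0.05 and 95% intervals from the moderated spread. The pairing comes from the labels; deviations of littermates from their group means correlated at 0.10, -0.05 and -0.15, so littermates did not deviate together. Embryos are separate animals, and the 3 litters are the units. limma draws the spread of each gene between litters towards that of all genes. SEs and p-values therefore do not measure the spread of 1 gene between 3 litters alone. For Pola1 the litter differences had an SD of 0.062, beside an SE of 0.10. The fit was tested on simulated data. Tables and plots used Python 3.11.15. Named were the members past the threshold, the widest change in either direction of each role, Pcna, Mki67, Top2a, Mcm2 and Ccnd1, and of other lists the genes past the threshold; Rfc3, Rfc4, Fen1, E2f1, Cdk2, Ccnd2, the further genes of the complexes, Cdkn1c and all other members were named after their values were seen. Members and lists were chosen with earlier results of these data known.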

Additional observations from a re-analysis of the deposited data

How the results depend on the processing

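With 3 litters the members' calls were few and depended on single genes. Against 1 member called, the count in limma was 2 without the litter block (no replicate block, Pola1 and Rfc4), 2 with an intensity trend (Pola1 and Rfc4) and 2 with the probe set of largest change (Pola1 and Rfc3). It was 0 with probe sets averaged per gene and 0 after the 1.5-fold variation filter, which kept 1 member of 1453 genes and no mitosis member, so that their median could not be given. Leaving out a litter gave 0 to 1. Alternatives added after seeing the data gave 3 with embryo sex as a covariate, where 1 residual degree of freedom was left, and 0 in the male embryos alone. The fit of the male embryos was not paired by litter, and 26 genes were called in it in all. For other genes of the pathway, 4 called became 8 without the block, 2 with arrays centred on their medians, 8 with the probe set of largest change, 1 after the variation filter, 9 with embryo sex and 0 in male embryos, and 1 to 3 without a litter. The median of replication members was -0.41 after the variation filter (Rfc3 alone), and that of G1/S members -0.10 in male embryos. Without 1 litter, Cdt1 ran from -0.045 to 0.14, Pole from -0.11 to 0.16 and Ccne2 from -0.091 to 0.24, so their signs are not settled. Calls lost in male embryos alone included Cdkn1a (1.02, adjusted p = 0.138 from limma). Without 1 litter the medians ran from -0.15 to -0.037 for replication, from -0.17 to -0.051 for mitosis and from -0.26 to -0.15 for G1/S members. The mitosis median was -0.045 in male embryos and -0.14 with the probe set of largest change. Medians stayed below 0 under each alternative that gave one, but their size depended on the litter. The causes were not tested.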
